A study of Rattus norvegicus with 12 samples.

Results

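The interferon-induced locus of rat chromosome 6 that carries Rsad2 and Cmpk2 was described across cultured pulmonary artery cells given an siRNA against NRF2. The genes were chosen by position, as those whose lowest exon position lies from 45600000 to 45800000 on chromosome 6 in the count table, and by measured values, as those with at least 10 counts summed over the 12 libraries. That sum runs over all groups and uses no difference between them, though the locus was proposed with results of these data known. Of 32883 genes in the table, 3 lie in this window and 2 reached the count minimum. ENSRNOG00000007539, on the minus strand (45655954 to 45669148, 6 merged exons), had 71968 counts in all, and ENSRNOG00000007690, on the plus strand (45683234 to 45694822, 5 merged exons), had 21448. The third gene, on the plus strand at 45649044 to 45650094, had 0 counts in every library, which allows a level of up to 0.00794 CPM (counts per 1e6 counted reads; 3 counts over all 12 libraries, counting error only). The gene nearest outside the window, ENSRNOG00000007370 (minus strand, 45509787 to 45629168), missed it by its start alone and had 8344 counts. No source used here names the genome build of these positions.

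The RNA came from cultures of primary rat cells of the pulmonary artery, endothelial cells (PAEC), which line the vessel, and smooth muscle cells (PASMC), which form its contractile wall. Each cell type received either an siRNA against NRF2 (siNRF2), the transcription factor that switches on genes of the oxidative stress response, or a control siRNA (siControl). The 4 groups, PAEC siNRF2, PAEC siControl, PASMC siNRF2 and PASMC siControl, held 3 libraries each, described as biological replicates in the design text. The genotype label reads WT throughout, and no treatment other than the siRNA is labelled. The cell type label reads PASMC for every sample, so the cell type was taken from the titles. PAEC were grown in an endothelial medium and PASMC in a smooth muscle medium, so cell type and medium cannot be told apart. Whether the replicates were separate animals or cultures is not stated, and p-values measure the spread between these libraries. Libraries held 27008812 to 34317763 counts. Every direction below rests on reading the abbreviated library names of the count table as cell type, siRNA and replicate, which no label spells out. The table pairs no gene with a symbol, so neither the siRNA target nor cell type markers are analysed here.

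Rsad2 encodes viperin, an endoplasmic reticulum-associated radical SAM enzyme that turns CTP into a chain-terminating nucleotide and restricts many viruses. Cmpk2 encodes a mitochondrial nucleoside monophosphate kinase that phosphorylates CMP and UMP and so works on the same nucleotide pool. In mammals the genes are neighbours read in opposite directions. Both are classic interferon-stimulated genes, induced through the interferon-stimulated response element (ISRE), a repeat of GAAA motifs, in their promoters. NRF2 acts through another sequence, the antioxidant response element (ARE).

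The label of the locus was checked against the structure of the genes, since 0 of the 32883 gene IDs could be matched by ID to the RefSeq gene table (assembly GRCr8). In GRCr8, Rnf144a, Rsad2 and Cmpk2 are successive protein-coding genes of chromosome 6, on the minus, minus and plus strands. The spans of the minus-strand and plus-strand genes of the count table differed from those of Rsad2 and Cmpk2 by -0.498% and 0.748%, and the 14085 bases between them differed from the GRCr8 gap by 1.3%. Of 3934 adjacent pairs of RefSeq protein-coding genes read away from each other, only this pair had both spans and the gap within 5% of the count table's pair. ENSRNOG00000007370 likewise differed from Rnf144a by -0.516% in span. This is a match of structure between builds and not of IDs, so the genes are called here the minus-strand gene (ENSRNOG00000007539, at the place of Rsad2) and the plus-strand gene (ENSRNOG00000007690, at the place of Cmpk2). No other gene of the table overlaps either of them.

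The promoters of Rsad2 and Cmpk2 are shown because both genes are known for their response elements and because their counterparts in the table lie start to start. Each window runs from 250 bases before the RefSeq start to 50 bases after it, 5′ to 3′ on the gene's strand, in GRCr8 (Rsad2 at chr6:48788071-48788370, minus strand; Cmpk2 at chr6:48802600-48802899, plus strand). Capitals mark a pair of GAAA motifs spaced as GAAANNGAAA or GAAANGAAA (N, any base), read here on the opposite strand as TTTC. Other GAAA motifs, also pairs of another spacing, are left in lower case.
Rsad2: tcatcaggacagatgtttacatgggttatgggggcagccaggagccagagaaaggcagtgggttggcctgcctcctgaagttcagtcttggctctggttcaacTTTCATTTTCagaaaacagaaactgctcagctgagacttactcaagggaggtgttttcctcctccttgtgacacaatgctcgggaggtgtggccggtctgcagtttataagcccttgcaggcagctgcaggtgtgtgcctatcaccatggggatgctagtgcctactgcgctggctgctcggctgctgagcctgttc
Cmpk2: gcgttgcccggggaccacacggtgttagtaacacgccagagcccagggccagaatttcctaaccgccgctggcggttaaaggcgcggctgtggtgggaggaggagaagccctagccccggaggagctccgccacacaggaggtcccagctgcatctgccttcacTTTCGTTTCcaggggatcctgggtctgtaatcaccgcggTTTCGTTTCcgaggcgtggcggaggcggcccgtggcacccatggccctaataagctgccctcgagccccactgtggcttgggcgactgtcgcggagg

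The ISRE core (GAAANNGAAA, searched on both strands) occurred 1 time in the Rsad2 window, at position -147 from the start, and 0 times in that of Cmpk2. The closer-spaced form GAAANGAAA, searched for after the sequences had been read, occurred 2 times in the Cmpk2 window, at positions -86 and -47 from the start, and 0 times in that of Rsad2. Of 33469 rat promoter windows of this length, 3.92% held the first motif and 3.5% the second. The ARE core (TGACNNNGC, in 12.1% of windows) had 0 matches in either window. A match is a run of letters and not a shown binding site, and a missing match says nothing of sites outside these windows.

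In endothelial cells both genes of the locus were lower with the NRF2 siRNA. The minus-strand gene had 13.1, 7.26 and 8.12 CPM after TMM scaling of library sizes in the 3 PAEC siNRF2 libraries, against 35.7, 33.6 and 36.2 CPM in PAEC siControl. The groups did not overlap, and the highest siNRF2 library, replicate 1, stood apart from the other 2. How many of all genes tested separate in this way was not counted, in this or the later comparisons, so separation is description only. The group means were 9.49 ± 3.16 CPM in siNRF2 and 35.15 ± 1.38 CPM in siControl (SD, n = 3 each), which is 3.71-fold lower on the fitted scale (log2 fold change -1.89, SE 0.167, adjusted p = 2.3e-06, edgeR quasi-likelihood test, adjusted over 14584 genes). Without siNRF2 replicate 1 the log2 fold change was -2.21.

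The plus-strand gene had 5.67, 7.63 and 5.87 CPM in PAEC siNRF2, against 14.9, 15.8 and 13.9 CPM in PAEC siControl. All 3 siNRF2 libraries again lay below all 3 siControl libraries, with replicate 2 the highest of the siNRF2 libraries. It averaged 6.39 ± 1.08 CPM in siNRF2 and 14.8 ± 0.953 CPM in siControl (SD, n = 3 each). That is 2.32-fold lower, a log2 fold change of -1.21 with SE 0.114 (edgeR, adjusted p = 3.5e-07). Both genes were thus called lower, where 13.2% of all genes tested were called lower in this comparison. By log2 fold change they ranked 319 and 672 from the lowest of 14584 genes, whose median was 0. These values rest on 151 to 349 reads per gene and library in siNRF2 and 387 to 1011 in siControl, so counting alone gives an error of up to 8.14%. The SD of the minus-strand gene in PAEC siNRF2, 33.2% of its mean, was larger than that. In such bulk RNA, fewer cells that express a gene and less RNA per cell cannot be told apart.

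**Figure D1:**
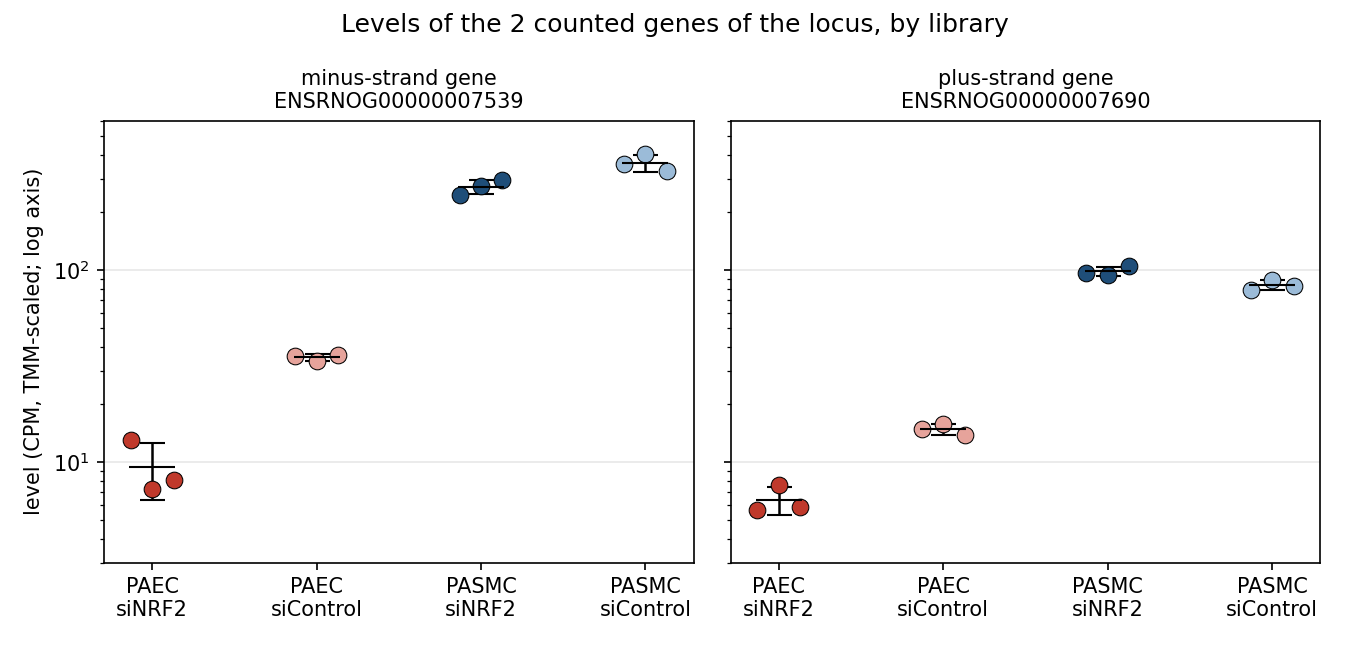
Level of each gene in every library (CPM after TMM scaling, log axis), with the minus-strand gene on the left and the plus-strand gene on the right; points are libraries, bars the mean ± SD of 3. In PAEC the siNRF2 libraries lie below the siControl libraries for both genes, while in PASMC the siNRF2 libraries lie below siControl for the minus-strand gene and above it for the plus-strand gene.

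In smooth muscle cells the minus-strand gene was lower with the NRF2 siRNA, and the plus-strand gene, with higher values, did not pass the test. The minus-strand gene had 247, 275.5 and 295 CPM in PASMC siNRF2, against 356, 402 and 327 CPM in PASMC siControl. The groups did not overlap, and means were 272.5 ± 23.95 CPM in siNRF2 and 362 ± 37.8 CPM in siControl (SD, n = 3 each). That is 1.33-fold lower, a log2 fold change of -0.41 with SE 0.144 (edgeR, adjusted p = 0.046). It was called lower, as were 14.6% of all genes tested, and 2797 of 14584 genes had a lower log2 fold change. The call stood close to the threshold. It held in 4 of the 12 fits that left out 1 library. Of the fits without a PASMC library, only that without siControl replicate 3 kept it (edgeR, adjusted p = 0.041). The highest adjusted p was 0.17, without PASMC siNRF2 replicate 1 or PASMC siControl replicate 2. The other calls that held came without a PAEC siNRF2 library (edgeR, adjusted p = 0.0014, 0.015 and 0.037). Those fits kept every library of the comparison, so only the shared filter, scaling and spread could move. The log2 fold change over the 12 fits was -0.48 to -0.33.

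The plus-strand gene had 96.7, 94.8 and 104.7 CPM in PASMC siNRF2, against 78.95, 88.9 and 82.8 CPM in PASMC siControl. Here each siNRF2 library lay above each siControl library, with means of 98.7 ± 5.29 CPM in siNRF2 and 83.5 ± 5.01 CPM in siControl (SD, n = 3 each). The log2 fold change of 0.24 (SE 0.0975) did not pass the threshold (unadjusted p = 0.023, adjusted p = 0.069, edgeR). The calls in PASMC changed with the fit. The adjusted p of the minus-strand gene was 0.083 with the replicate number as a block, 0.12 with no filter on low counts and 0.11 with DESeq2, each of which ends its call. With only the 6 PASMC libraries in the fit, the adjusted p was 0.028 for the plus-strand gene and 0.0016 for the minus-strand gene.

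**Figure D2:**
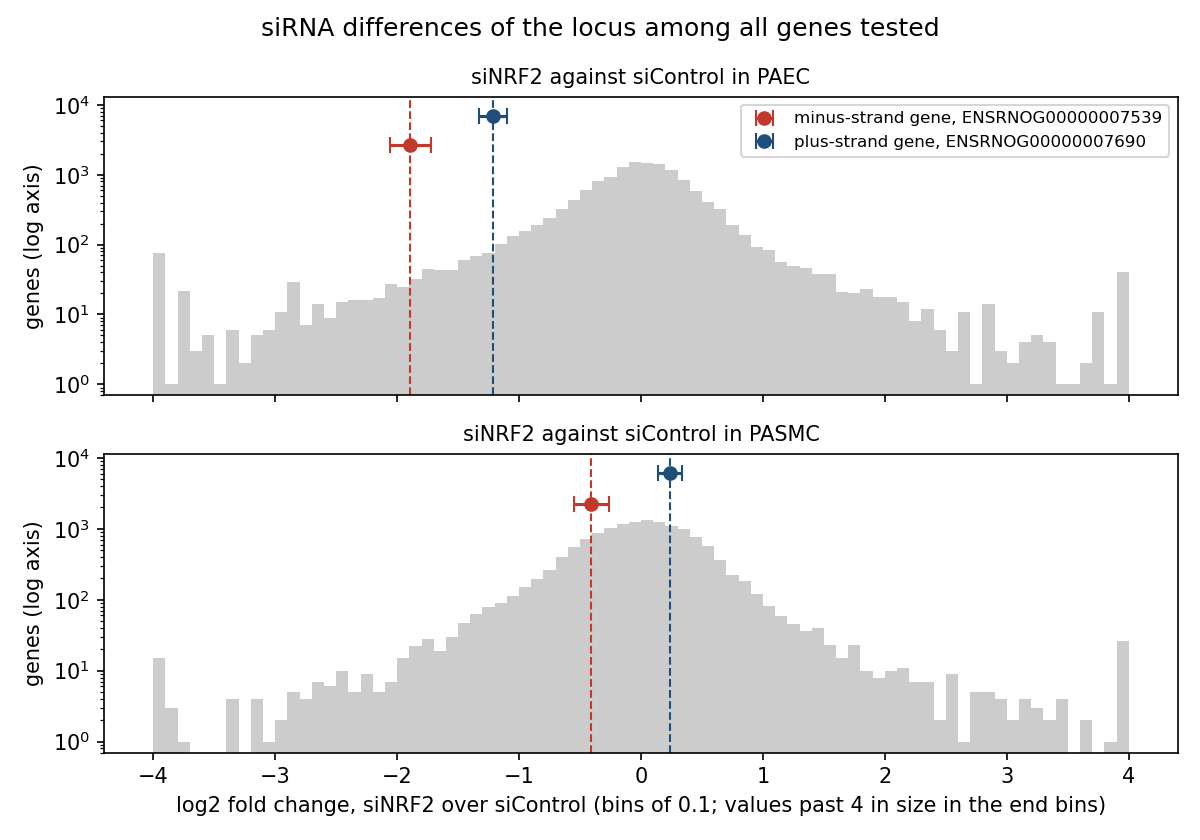
Log2 fold change of siNRF2 over siControl for both genes (points, ± SE, dashed lines; their height has no meaning) over the histogram of all 14584 genes tested (bins of 0.1, number of genes on a log axis), for PAEC above and PASMC below. Both genes lie in the lower tail in PAEC, at -1.89 and -1.21, and within the bulk of genes in PASMC, at -0.41 and 0.24.

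**Figure D3:**
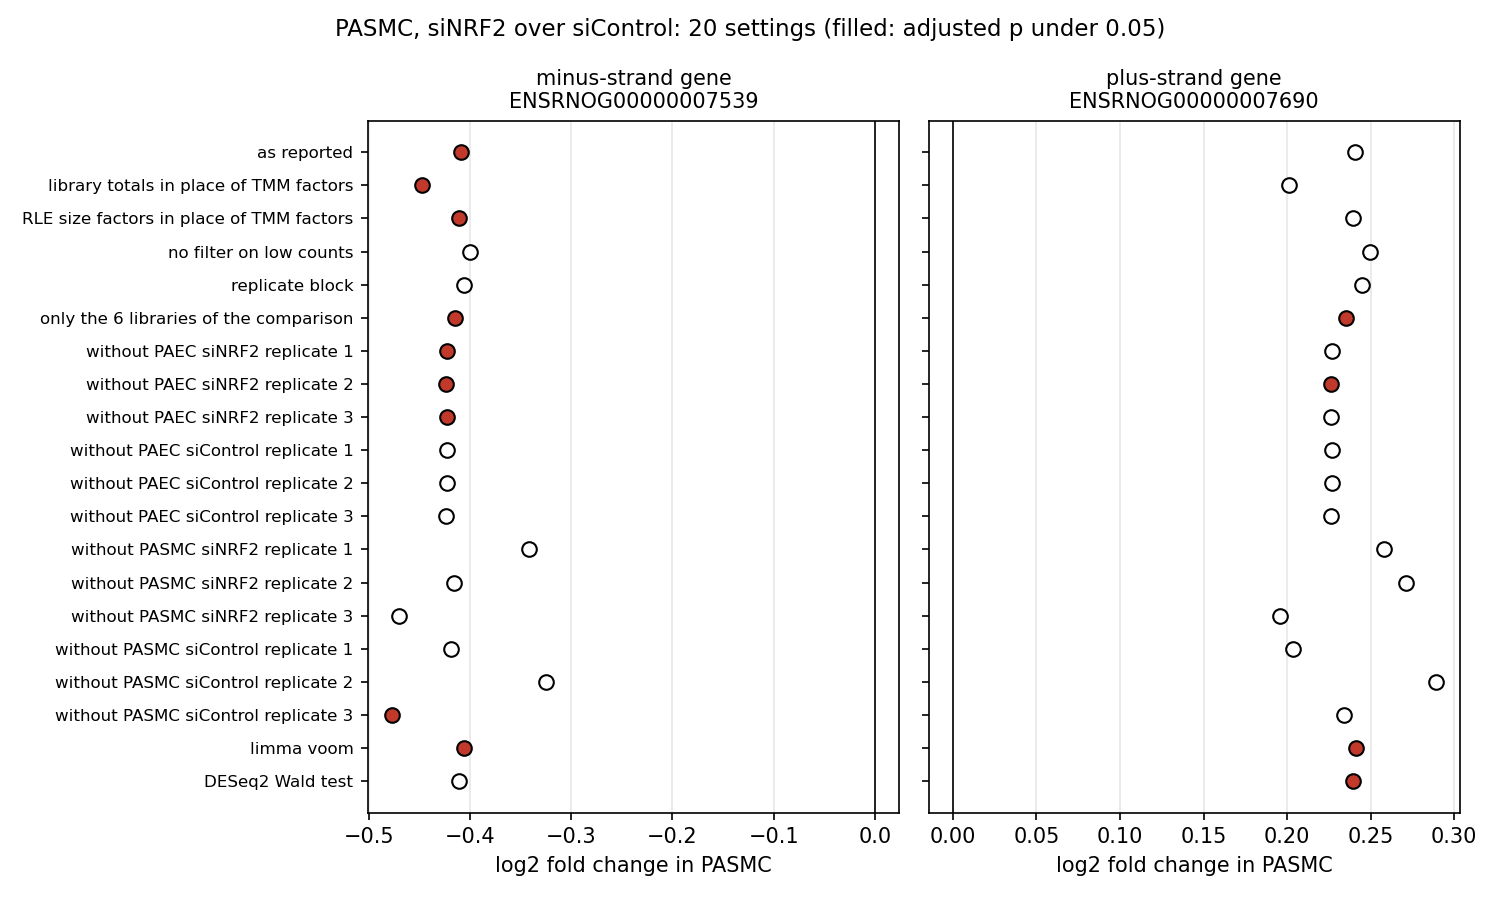
Log2 fold change in PASMC of the minus-strand gene (left) and the plus-strand gene (right) as reported and under 19 other settings, with filled points where the adjusted p was under 0.05. The minus-strand gene stays below 0 and the plus-strand gene above 0 in every setting plotted, while the calls change with the setting.

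The effect of the siRNA was then compared between the cell types as an interaction. For the minus-strand gene the PAEC effect lay below the PASMC effect by -1.48 on the log2 scale (SE 0.22, adjusted p = 0.00034, edgeR), a 2.79-fold difference between the effects. For the plus-strand gene the difference was -1.46 (SE 0.15, adjusted p = 3.3e-06), or 2.74-fold. Both were called, against 15.4% of all genes tested with an effect called lower in PAEC than in PASMC. In each of 12 fits without 1 library both remained called, with differences from -1.78 to -1.32 for the minus-strand gene and from -1.60 to -1.38 for the plus-strand gene. The gene nearest outside the window gave a log2 difference of 0.13 (SE 0.201, adjusted p = 0.67).

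The ratio between the genes is given as a description, since it was chosen after their values had been seen. A ratio of counts within a library needs no scaling between libraries. In PASMC the minus-strand gene had 2.56, 2.91 and 2.815 counts per count of the plus-strand gene in siNRF2, against 4.51, 4.525 and 3.95 in siControl. In PAEC the ratio was 2.31, 0.951 and 1.38 in siNRF2, against 2.40, 2.13 and 2.61 in siControl. The groups did not overlap in PASMC, while in PAEC siNRF2 replicate 1 fell within the range of siControl.

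The mean log2 ratio differed between siNRF2 and siControl by -0.65 in PASMC (two-sided exact permutation test, p = 0.1, the smallest that 3 against 3 libraries can give) and by -0.71 in PAEC (exact permutation p = 0.2). With 3 libraries a group neither test could pass a threshold of 0.05, so these p-values cannot decide whether the ratio differed in either cell type. The mean shift over both cell types was -0.68 (exact permutation within cell type, p = 0.01, the smallest possible being 0.005). The 2 shifts differed by -0.06 (exact permutation, p = 0.895). As the ratio was chosen after its values had been seen, these p-values are description as well. With single libraries left out, the shift ranged from -0.71 to -0.60 in PASMC and from -1.05 to -0.41 in PAEC, the smallest without siNRF2 replicate 2. Per base of merged exon (3666 bases in the minus-strand and 3840 in the plus-strand gene), the ratio averaged 1.62 ± 0.728 in PAEC siNRF2, 2.49 ± 0.252 in PAEC siControl, 2.89 ± 0.190 in PASMC siNRF2 and 4.535 ± 0.343 in PASMC siControl (SD, n = 3 each).

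**Figure D4:**
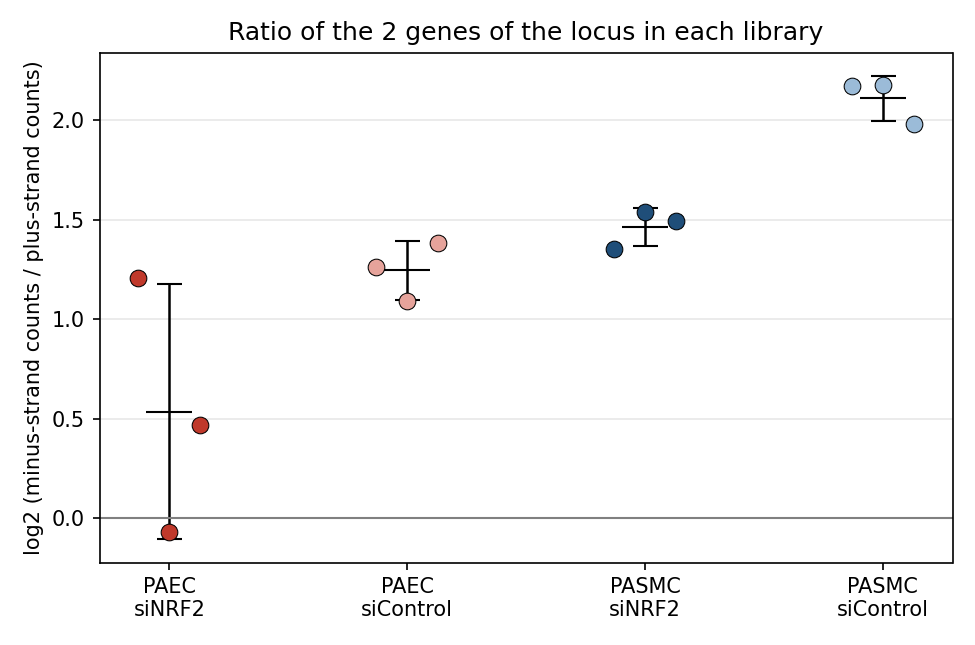
Log2 ratio of the counts of the minus-strand gene to those of the plus-strand gene in each library (points) with the mean ± SD of each group of 3. The siNRF2 means of 0.53 in PAEC and 1.46 in PASMC lie below the siControl means of 1.25 and 2.11, with PAEC siNRF2 replicate 1 level with PAEC siControl.

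Within groups the genes showed no shared variation that the data could establish. With each group mean subtracted from the log2 CPM of its libraries (n = 12), Pearson's r was -0.481 (exact permutation within groups, p = 0.522) and Spearman's rho was -0.161 (p = 0.732, the only such relation computed). Without PAEC siNRF2 replicates 1 and 2, the libraries farthest from the median, r was 0.484, so the sign rests on those libraries.

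Between cell types, both genes were far lower in endothelial than in smooth muscle cells under either siRNA. Under siNRF2 the log2 difference of PAEC from PASMC was -4.84 (SE 0.177, adjusted p = 1.5e-11, edgeR) for the minus-strand gene and -3.95 (SE 0.116, adjusted p = 1.4e-15) for the plus-strand gene, 28.7-fold and 15.4-fold. Under siControl the differences were -3.36 (SE 0.161, adjusted p = 3e-10) and -2.49 (SE 0.106, adjusted p = 3.2e-13), 10.3-fold and 5.63-fold. Both genes were called lower in PAEC each time, where 28.1% of all genes tested were called lower under siNRF2 and 28.3% under siControl. When TMM factors were replaced by library totals, which moved the median of all genes under siControl to -0.47, against -0.03 with TMM, the siControl differences were -3.80 and -2.93. The genes called lower in PAEC then numbered 7474 under siNRF2 and 7488 under siControl of the 14584 tested, against 4103 and 4123 with TMM.

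On the scale of CPM per kilobase of exon, the minus-strand gene averaged 2.59 ± 0.861 in PAEC siNRF2, 9.59 ± 0.375 in PAEC siControl, 74.3 ± 6.53 in PASMC siNRF2 and 98.7 ± 10.3 in PASMC siControl (SD, n = 3 each). The plus-strand gene averaged 1.665 ± 0.281, 3.86 ± 0.248, 25.7 ± 1.38 and 21.75 ± 1.30 in the same groups, so that the PASMC groups stood in the other order. Those PASMC groups are the neighbours in this order whose difference did not pass the test. By mean CPM the minus-strand gene ranked 8851 of 14584 genes in PAEC siNRF2, 5122 in PAEC siControl, 538 in PASMC siNRF2 and 333 in PASMC siControl. The plus-strand gene ranked 9616, 7836, 1881 and 2306.

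The next gene on the chromosome did not pass the test for an siRNA effect in PAEC. ENSRNOG00000007370, at the place of Rnf144a (an E3 ubiquitin ligase gene), ends 26785 bases before the minus-strand gene begins. It had 43.7, 44.1 and 45.05 CPM in PAEC siNRF2, against 47.3, 34.2 and 42.3 CPM in PAEC siControl, with siNRF2 inside the siControl range. Its siNRF2 effect was 0.10 on the log2 scale, with a 95% interval of -0.21 to 0.41 (SE 0.135, edgeR, adjusted p = 0.65). Its cell-type difference ran the other way from that of the locus, at 2.93 (SE 0.149, adjusted p = 4.3e-12) higher in PAEC under siNRF2 and 2.80 (SE 0.148, adjusted p = 8.6e-12) under siControl.

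On the other side, 935151 bases separate the plus-strand gene from the next counted gene, ENSRNOG00000030034 (minus strand, 46629974 to 46631983). It had 0 counts in all 3 PAEC siNRF2 libraries, against 4, 8 and 0 counts in PAEC siControl, and it had 147, 129 and 159 counts in PASMC siNRF2, against 95, 76 and 152 counts in PASMC siControl. On these few reads it was called in the direction of the locus, lower with siNRF2 in PAEC (edgeR, adjusted p = 0.013) and with a PAEC effect below the PASMC effect (adjusted p = 0.011). Without PAEC siControl replicate 2 the PAEC adjusted p was 0.07. It was also called lower in PAEC than in PASMC under siNRF2 (adjusted p = 2.4e-07) and under siControl (adjusted p = 1.4e-05). Its fitted fold changes against a group at 0 are no bound. Of the 10 tested genes on each side of the locus, which cover 6.07 Mb, 4 were called higher and 4 lower with siNRF2 in PAEC, and their median effect was -0.04 on the log2 scale. In PASMC 2 were called higher and 2 lower, with a median of -0.02. Over all genes tested the medians were 0 in PAEC and 0.005 in PASMC. Of these 14584 genes, 1678 were called higher and 1929 lower in PAEC, and 2350 higher and 2129 lower in PASMC.

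**Figure D5:**
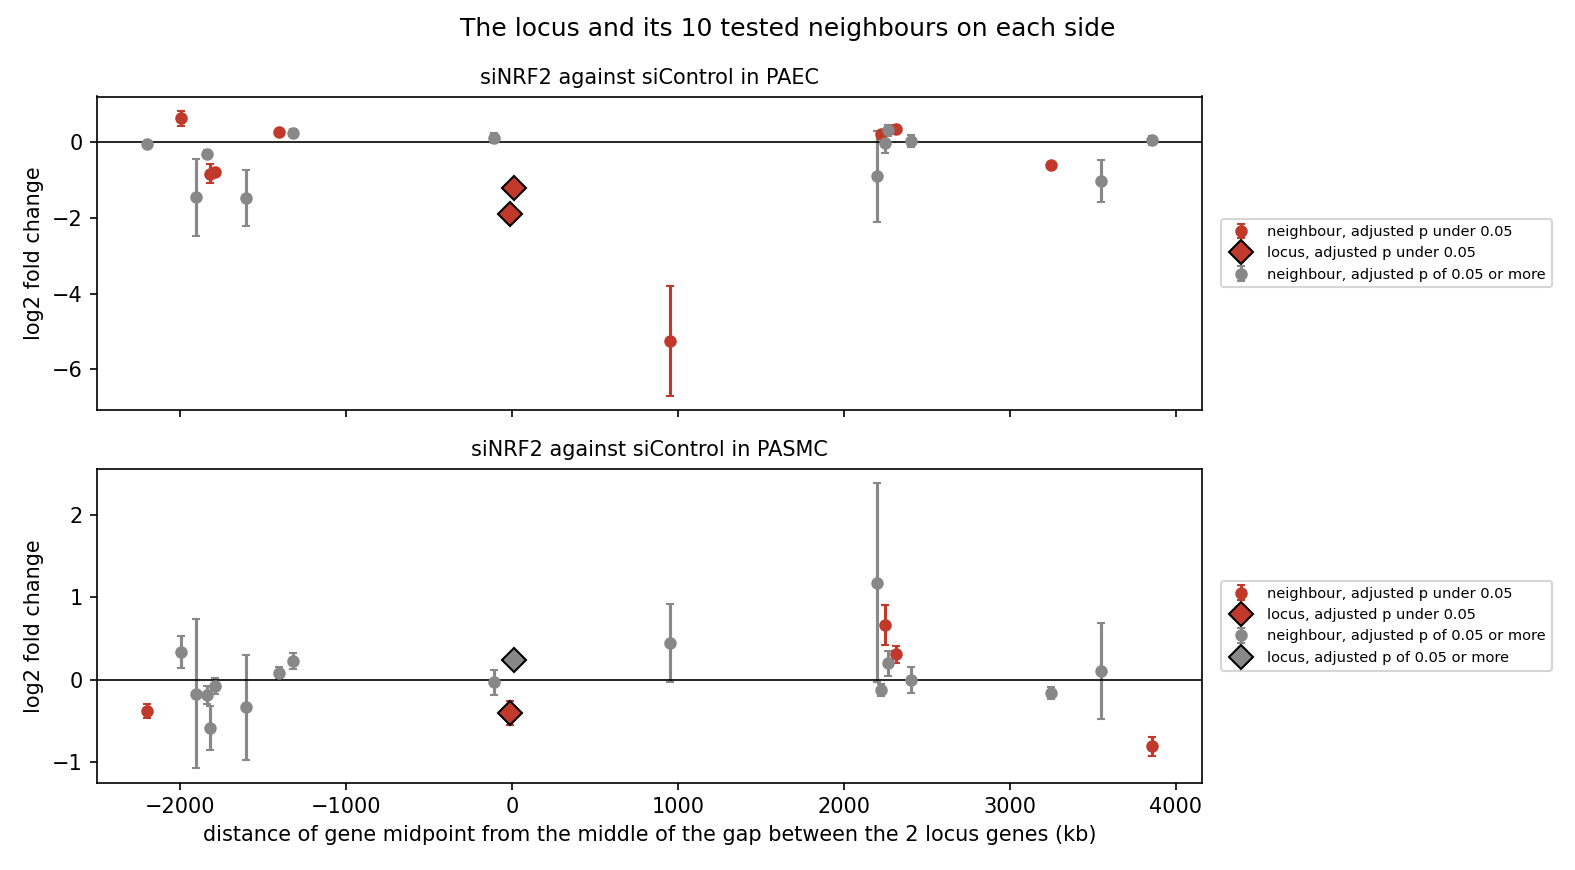
Log2 fold change of siNRF2 over siControl (± SE) against distance in kb from the middle of the gap between the genes of the locus, for PAEC above and PASMC below; diamonds are the locus, circles the 10 tested genes on each side, red an adjusted p under 0.05. In PAEC the locus lies at -1.89 and -1.21 beside a nearest neighbour at 0.10, and the circle at -5.25 is the gene with 0 counts in PAEC siNRF2, whose fitted value is no bound.

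The genes most like each member over the 12 libraries were found by Pearson's r of log2 CPM, a measure led by the cell-type difference. For the minus-strand gene this was ENSRNOG00000056343 (chromosome 15, 37943609 to 37983882, minus strand, r = 0.996), at 140 ± 12.8 CPM in PAEC siNRF2, 171 ± 1.11 in PAEC siControl, 256 ± 5.32 in PASMC siNRF2 and 271 ± 4.99 in PASMC siControl (SD, n = 3 each). For the plus-strand gene it was ENSRNOG00000010478 (chromosome 6, 127941526 to 128080889, plus strand, r = 0.998), at 303 ± 66.4, 584 ± 12, 2798 ± 91.9 and 2630 ± 269 CPM in the same groups. Pearson's r takes no account of the size of a change. The log2 fold change with siNRF2 in PAEC was -0.29 for ENSRNOG00000056343, against -1.89 for the minus-strand gene. It was -0.95 for ENSRNOG00000010478, against -1.21 for the plus-strand gene. The r between the members was 0.982, which ranked the plus-strand gene 64 among 14583 other genes by likeness to the minus-strand gene, and the minus-strand gene 84 by likeness to the plus-strand gene. Such values were common: 354 genes outside the locus had an r above 0.95 with the minus-strand gene, and 520 with the plus-strand gene. The libraries share their cell type and siRNA groups, so these r values describe the pattern and carry no test.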

How the data were processed

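Gene expression was measured by RNA-seq in 12 libraries. Trizol extraction and a directional library kit were used, per the labels' protocols. The authors deposited raw, whole-number counts with the exon positions and length of each gene. The submitters' processing notes name HISAT2 2.0.5, featureCounts 2.0.3 and DESeq2 1.32.0 without roles; no source used here gives the build or the strand setting. No column of per-sample values was left out. In the library names, E and S in the first place were read as endothelial and smooth muscle, and C and S in the second as control and NRF2 siRNA.

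The genes and tests were chosen with earlier results of these data known. Genes were kept by filterByExpr (14584), scaled by TMM and fitted over all 12 libraries with 1 coefficient per group (8 residual degrees of freedom; edgeR 4.0.16, R 4.3.3, glmQLFTest, robust), with Benjamini-Hochberg adjustment over all genes and calls at an adjusted p under 0.05. Standard errors came from the F statistics. CPM used TMM library sizes, log2 CPM a prior count of 2. The fit was tested on simulated data. Alternatives used DESeq2 1.42.0, limma 3.58.1 and the settings below. Replicate libraries were not duplicates (chi-square of 8.78 to 40.0 per gene between them). The ratio of the genes was tested by exact permutation. Lists and markers planned by symbol (interferon-stimulated genes, interferon signalling, nucleotide enzymes, cell types) were not run, since the IDs could not be matched. Named genes were all members and, by rule, the gene most like each. Other genes named were chosen for their position. Promoter sequences are RefSeq's (GRCr8).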

Additional observations from a re-analysis of the deposited data

Results flagged for a closer look

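Both genes of the locus responded differently to the NRF2 siRNA in the 2 cell types, by the interaction test given above. For ENSRNOG00000007539 the effect in PAEC minus that in PASMC was -1.48 on the log2 scale, with lower levels in siNRF2 in both cell types. Its PASMC call was lost in 11 of 19 other settings. For ENSRNOG00000007690 the difference was -1.46, with levels lower in all 3 PAEC siNRF2 libraries and higher in all 3 PASMC siNRF2 libraries than in siControl. Its PASMC difference did not pass the threshold (edgeR, adjusted p = 0.069). Single outlying libraries were not tested for in groups of 3.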

How the results depend on the processing

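The other settings include fits that left out a library from outside the groups compared. Those fits kept every compared library, so their fold changes could hardly move. Of 188 log2 fold changes of the members recomputed under other settings, 0 changed direction and 173 kept their call. The 15 others all concern PASMC. There 1 of the 2 genes was called as reported, 0 with no filter on low counts, 0 with the replicate block, and 2 with only the 6 libraries of the comparison or with limma voom, the minus-strand gene lower and the plus-strand gene higher. With single libraries left out the number ran from 0 to 2. Over all genes, those fits called the fewest without PASMC siNRF2 replicate 1, 1699 higher and 1435 lower of 14964. The most were called without PAEC siControl replicate 3, 2361 higher and 2355 lower of 14984. With the DESeq2 Wald test 1 gene was called, the plus-strand gene (adjusted p = 0.046) in place of the minus-strand gene (adjusted p = 0.11). The cause of these changes was not tested. The replicate numbers are shared by name only: libraries of the same number correlated in their deviations at -0.05 to 0.12, and only replicate 2 matched its own number best in each cell type. With the replicate block the numbers of all genes called in PASMC were 2307 higher and 2043 lower, against 2350 and 2129 as reported. With no filter on low counts they were 2290 and 1946 of 20254 genes. With only the 6 libraries of the comparison they were 2526 and 2414 of 13995. Of 14584 genes, limma voom called 2587 higher and 2299 lower, and DESeq2 2575 and 2319. The block changed no call of a member in the other 4 comparisons. The interaction cannot be fitted with the libraries of 2 groups alone, so that setting was not run for it. Counting error of the members was largest in PAEC, where a gene had as few as 151 reads in a library. Library depth was not lower there, and the lowest library total, 27008812 counts, was in PASMC siControl. The names of the genes rest on structure, and all directions on the reading of the library names.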
